A study of Mus musculus with 46 samples.

Results

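The remote myocardium of MRL/MpJ (MRL) mice was examined 1 day after the left coronary artery had been ligated, and was set against the same region of unoperated MRL hearts. The arrays were chosen by their titles, which name strain, region and time: 4 arrays of MRL noninfarct tissue at day 1 and 4 of MRL noninfarct tissue at day 0, 8 of the 46 arrays in all. Total RNA was labelled with biotin and hybridized to Affymetrix MOE430A arrays, and values are given here as log2 of the deposited intensity unless another unit is named. All mice were male and 15 to 20 weeks old. The day 1 MRL mice had been given isoflurane, opened at the chest, ligated and given buprenorphine, whereas the day 0 MRL mice were healthy and had not been operated on. Noninfarct tissue was the part of the left ventricle that remained once the anterior-apical area had been punched out, and at day 0 the matching region came from hearts with no infarct. For comparison the report uses 4 arrays of MRL noninfarct tissue at day 5, 4 arrays of MRL infarct tissue at day 1 with 4 at day 0, and 4 arrays of C57BL/6J (C57) noninfarct tissue at day 1 with 3 at day 0. No operated group without ligation was analysed here, so effects of infarction, surgery, anaesthesia and analgesia cannot be told apart.

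MRL is an inbred strain known for closing ear punch holes with little scarring, and its heart has been studied in the same light. Muscle outside an infarct is not ischaemic itself, but it has to carry a greater load, and it is reached by cytokines from the wound and by stress hormones. Among its textbook responses are the genes of the stretched or failing ventricle (natriuretic peptides and titin-bound ankyrin repeat proteins) and those of the acute phase. Acute phase genes are driven by cytokines of the interleukin 6 family, which bind receptor pairs containing gp130 and activate the transcription factor STAT3, and SOCS3 then shuts the pathway down.

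The tissue read as ventricular muscle on every array. All 12 ventricular cardiomyocyte markers (among them Myh6, Myl2, Tnnt2 and Ryr2) lay above the array median on all 8 arrays, and their summed linear intensity was 232310 to 253069 at day 1 and 251796 to 260894 at day 0. Array medians over the series spanned 18.6 to 22.3 on the linear scale. The log2 difference between the 3′ and 5′ control probe sets of Gapdh was -0.26 ± 0.12 at day 1 and -0.23 ± 0.12 at day 0 (SD, n = 4 each). The day 1 arrays were less alike than the day 0 arrays: day 1 replicate 3 correlated with the other day 1 arrays at 0.969 to 0.973, the remaining day 1 pairs reached 0.986, and day 0 pairs spanned 0.984 to 0.992 (Pearson's r across probe sets, as a description). Day 1 replicate 3 had the highest value of its group for several stress genes named below. Day 0 replicate 3 differed in clock genes: the output gene Dbp read 6.52 there against 9.32 to 10.51 on the other day 0 arrays, and the clock activator Arntl 6.08 against 3.26 to 3.45. The clock time of collection was not given in the sources used here. The titles number the arrays as biological replicates, and the number of arrays limits the precision of every value below.

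At day 1 the remote MRL ventricle had changed in a small set of transcripts, most of them upward. Of 12344 probe sets tested, 121 were called (0.98%) at an adjusted p under 0.05 (limma, Benjamini-Hochberg), 97 higher (0.786%) and 24 lower (0.194%). At an unadjusted p under 0.05 the number was 1544 (12.5%). Reduced to 1 probe set a gene, 76 of 7322 genes were called (1.04%), 61 higher (0.833%) and 15 lower (0.205%), and 57 of them had changed by more than 1 on the log2 scale (48 higher and 9 lower). All 4 day 1 values lay above all 4 day 0 values for 561 genes (7.66%) and below them for 423 (5.78%). At an unadjusted p under 0.05, 549 of the 7322 genes were higher and 353 lower. The median change over all genes was 0.01.

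The size of this set depended on the arrays that set the error. The fit took its error from 23 noninfarct arrays in 6 groups. It called 317 probe sets without C57 day 5 noninfarct replicate 3, an array that stands apart from its group, and 494 when only the 8 MRL arrays entered. With 1 of the 8 arrays left out in turn the count lay between 45 and 212: it was 212 without day 1 replicate 1, 45, 55 and 52 without day 1 replicates 2, 3 and 4, and 47, 53, 65 and 59 without day 0 replicates 1 to 4. Without day 1 replicate 3 the genes called numbered 27 higher and 11 lower.

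**Figure D1:**
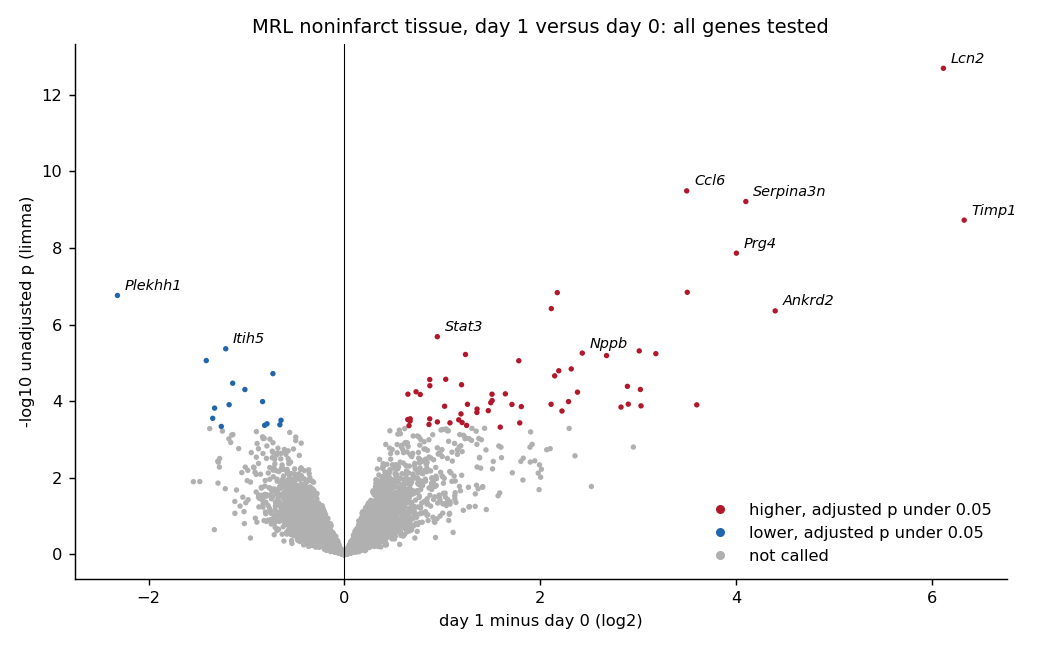
Change of each of the 7322 genes tested (day 1 minus day 0, log2, horizontal) against -log10 of its unadjusted limma p (vertical) in MRL noninfarct tissue, 4 arrays a day. The 61 genes called higher reach a change of 6.33 (Timp1), and the 15 called lower reach -2.32 (Plekhh1).

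The largest rise of all belonged to Timp1, the secreted inhibitor of matrix metalloproteinases. Timp1 read 8.33, 9.52, 8.40 and 8.82 on the day 1 arrays, against 2.24, 2.67, 2.13 and 2.71 on the day 0 arrays. The groups lay far apart, and the day 0 mean was below the median of every array, so the 80.5-fold difference is taken against a signal near the bottom of the scale. The change was 6.33 ± 0.62 (log2 ± SE, adjusted p = 5.76e-06). Of the 21 proteases and inhibitors tested, Timp1 was the 1 called member, against 0.833% of all genes called higher. Its relatives Timp2, Timp3 and Timp4 changed by -0.22, 0.03 and -0.33, and the metalloproteinases Mmp2 and Mmp9 by 0.16 and 0.13, none of them called (adjusted p from 0.811 to 0.987).

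Several members of the interleukin 6 and acute phase list rose. Of 20 members tested, 6 were called higher and 0 lower, against 0.833% of all genes called higher. The median change over the list was 0.74, against 0.01 over all genes. By day 1 array the list's median change from the day 0 mean was 0.47, 0.47, 1.22 and 0.68, highest in replicate 3. Without that array 5 members were called.

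Lcn2, the siderophore-binding lipocalin that many tissues make in the acute phase, was the member with the largest change. It read 8.43, 8.97, 9.10 and 9.01 at day 1, against 2.55, 2.76, 2.95 and 2.77 at day 0. The day 1 arrays lay close together and far above every day 0 array, and the day 0 mean was below the median of every array. The change was 6.12 ± 0.37 (log2 ± SE, adjusted p = 2.51e-09, a 69.5-fold difference). Serpina3n, a secreted serine protease inhibitor of the acute phase, had values of 9.16, 8.98, 10.48 and 9.72 at day 1, against 5.54, 5.20, 5.09 and 6.10 at day 0. Again no arrays overlapped, and the change was 4.10 ± 0.38 (log2 ± SE, adjusted p = 2.51e-06).

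Signalling parts of the pathway moved as well. Socs3, the feedback inhibitor of gp130 signalling, read 6.78, 7.86, 9.53 and 7.74 at day 1, against 4.62, 4.90, 5.52 and 5.30 at day 0. The lowest day 1 array still exceeded the highest day 0 array, and replicate 3 was the highest by a wide margin. The change was 2.89 ± 0.56 (log2 ± SE, adjusted p = 0.0123), and the call was lost without day 1 replicate 3 or without day 0 replicate 1 (adjusted p from 0.0526 to 0.0548). Osmr, the receptor subunit for oncostatin M, read 7.31, 8.37, 8.13 and 7.43 at day 1, against 5.74, 6.39, 5.23 and 5.11 at day 0. Its change was 2.19 ± 0.39 (log2 ± SE, adjusted p = 0.00705). Stat3 itself read 10.09, 10.57, 10.28 and 10.51 at day 1, against 9.23, 9.41, 9.35 and 9.67 at day 0. This was a small change of 0.95 ± 0.15 (log2 ± SE, adjusted p = 0.00182), but the groups did not overlap. Lrg1, a secreted leucine-rich glycoprotein of the acute phase, changed by 1.78 ± 0.30 (log2 ± SE, adjusted p = 0.00451). The shared receptor subunit gp130 (Il6st) changed by 0.11 and the interleukin 6 receptor (Il6ra) by -0.02, and neither was called (adjusted p = 0.893 and 0.982). Interleukin 6 itself (Il6) changed by 1.07 (adjusted p = 0.499). The acute phase protein haptoglobin (Hp) changed by 1.90 (adjusted p = 0.0545). Saa3, an acute phase amyloid, changed by 0.22, with 5.46, 5.40, 5.37 and 5.45 at day 1 against 5.39, 5.12, 5.11 and 5.20 at day 0. The groups overlapped, and it was not called (adjusted p = 0.893).

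**Figure D2:**
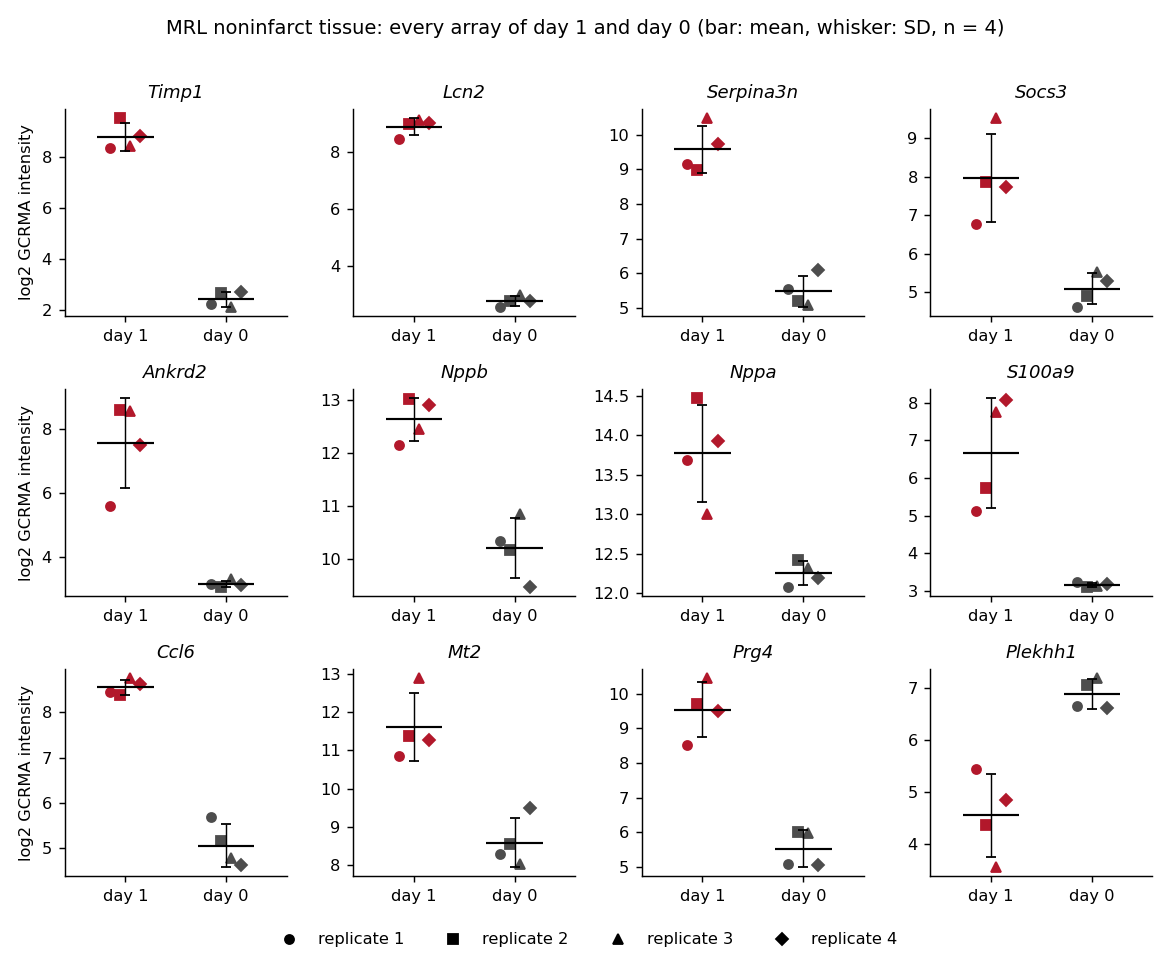
Log2 intensity (vertical) of 12 genes on each of the 4 day 1 arrays (left, red) and 4 day 0 arrays (right, grey) of MRL noninfarct tissue, with symbols for the replicate, a bar at the mean and a whisker of 1 SD. The groups do not overlap for any of the 12 genes, Plekhh1 is the 1 gene that is lower at day 1, and replicate 3 is the highest day 1 array for Lcn2, Serpina3n, Socs3, Mt2, Prg4 and Ccl6.

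The promoters of 4 called genes are shown because STAT3 is a textbook activator of acute phase genes, and the zinc sensor MTF1 of metallothionein genes. Each is the RefSeq window of 300 bases (250 before the gene's start and 50 after it) on build GRCm38.p6, which is a C57BL/6J genome and not that of MRL. Windows were found for 43 of the 52 named genes. Capitals mark matches, on either strand, of the STAT element TTCNNNGAA in Socs3, Serpina3n and Lcn2, and of the metal response element core, TGCACNC or TGCGCNC, in Mt2.
Socs3, chr11:117969317-117969616, minus strand: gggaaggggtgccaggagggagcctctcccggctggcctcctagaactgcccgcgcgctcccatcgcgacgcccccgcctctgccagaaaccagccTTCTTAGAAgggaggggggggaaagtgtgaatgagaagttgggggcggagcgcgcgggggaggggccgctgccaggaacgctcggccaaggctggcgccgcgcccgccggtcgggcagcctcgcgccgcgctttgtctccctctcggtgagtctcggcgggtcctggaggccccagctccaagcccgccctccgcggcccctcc
Serpina3n, chr12:104406458-104406757, plus strand: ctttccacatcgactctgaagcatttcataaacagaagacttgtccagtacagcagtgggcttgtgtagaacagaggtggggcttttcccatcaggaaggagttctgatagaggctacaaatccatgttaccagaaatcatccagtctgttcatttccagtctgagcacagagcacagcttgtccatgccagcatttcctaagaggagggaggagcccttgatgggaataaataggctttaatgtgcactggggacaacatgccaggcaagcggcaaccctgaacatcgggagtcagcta
Lcn2, chr2:32387690-32387989, minus strand: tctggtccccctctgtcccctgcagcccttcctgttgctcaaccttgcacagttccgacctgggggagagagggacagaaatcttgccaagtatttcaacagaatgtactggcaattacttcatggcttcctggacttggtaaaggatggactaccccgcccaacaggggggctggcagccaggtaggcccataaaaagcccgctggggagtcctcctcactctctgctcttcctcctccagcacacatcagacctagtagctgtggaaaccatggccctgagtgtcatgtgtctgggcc
Mt2, chr8:94172368-94172667, plus strand: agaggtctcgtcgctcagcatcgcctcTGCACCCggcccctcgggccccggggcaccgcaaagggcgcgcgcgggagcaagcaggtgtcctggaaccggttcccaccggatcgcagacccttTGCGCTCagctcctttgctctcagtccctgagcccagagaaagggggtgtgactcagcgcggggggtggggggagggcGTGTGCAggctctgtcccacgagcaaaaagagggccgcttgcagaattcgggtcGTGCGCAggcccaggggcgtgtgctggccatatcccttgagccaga
The Socs3 window held 1 STAT match and the Serpina3n and Lcn2 windows held 0. The windows of Osmr, Lrg1 and Stat3, searched in the same way and not shown, also held 0. Over 32851 promoter windows of the same length, 8.3% held a STAT match. The Mt2 window held 4 matches of the metal response core, which 25.7% of windows held at least once and 0.517% held 4 times or more. A match is a description of the letters only, and no match says nothing about binding outside the window.

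Mt2, a zinc-binding metallothionein, was among the brighter rising genes. It read 10.87, 11.38, 12.89 and 11.28 at day 1, against 8.29, 8.54, 8.03 and 9.50 at day 0. Replicate 3 was again the highest at day 1, and no arrays overlapped. The change was 3.01 ± 0.49 (log2 ± SE, adjusted p = 0.00352). The neighbouring gene Mt1 changed by 1.13 ± 0.30 with no overlap between the groups but was not called (adjusted p = 0.0768), and Mt3 and the zinc sensor Mtf1 changed by 0.04 and 0.05. Of the 5 members tested of the list of metallothioneins and zinc transport, Mt2 was the 1 called (0.833% of all genes were called higher).

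Glucocorticoid-responsive genes as a whole did not move in 1 direction. Of 20 tested, 2 were called higher (0.833% over all genes) and 0 lower, and the median change was -0.09. The 2 were Lcn2, which is also on the acute phase and neutrophil lists, and Angptl4, a secreted inhibitor of lipoprotein lipase. Angptl4 read 6.11, 6.57, 9.19 and 7.31 at day 1, against 4.36, 3.22, 3.90 and 5.60 at day 0. Its change of 3.02 ± 0.59 (log2 ± SE, adjusted p = 0.0139) lost its call without day 1 replicate 3 or without day 0 replicate 2 (adjusted p from 0.0513 to 0.0583). By array the list's median change was -0.29, -0.39, 0.89 and -0.37 for day 1 replicates 1 to 4, and replicate 3 was the 1 array above 0. Fkbp5, a classical glucocorticoid target, read 7.34, 7.37, 9.72 and 7.77 at day 1, against 7.46, 7.84, 5.37 and 7.62 at day 0, and was not called (adjusted p = 0.524). The arrays that differed were replicate 3 of each day, high at day 1 and low at day 0. The cell cycle inhibitor Cdkn1a read 7.08, 8.27, 10.28 and 8.45 at day 1, against 7.12, 7.12, 7.78 and 6.66 at day 0, with replicate 3 the highest on both days and overlapping groups (adjusted p = 0.256).

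Genes of the stretched or stressed cardiomyocyte rose in part. On the list of fetal and stress cardiac genes 16 members were tested, 3 were called higher and 0 lower (0.833% and 0.205% over all genes), and the median change was 0.77. All 3 remained called without day 1 replicate 3. Ankrd2, a titin-bound ankyrin repeat protein that responds to stretch in muscle, read 5.58, 8.60, 8.56 and 7.50 at day 1, against 3.15, 3.06, 3.29 and 3.13 at day 0. Every day 1 array was higher, replicate 1 least so, and the day 0 mean was below every array median. The change was 4.40 ± 0.61 (log2 ± SE, adjusted p = 0.000533). Nppb, which encodes the brain natriuretic peptide, read 12.16, 13.03, 12.47 and 12.91 at day 1, against 10.34, 10.17, 10.86 and 9.47 at day 0. This change of 2.43 ± 0.40 (log2 ± SE, adjusted p = 0.0036) was between high levels, since Nppb was already well above the array median at day 0. Fhl1, a LIM-domain protein of the titin stretch-sensing complex, read 11.91, 13.06, 12.13 and 12.34 at day 1, against 10.19, 10.38, 10.26 and 10.15 at day 0. Its change was 2.11 ± 0.29 (log2 ± SE, adjusted p = 0.000522).

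Other members of the stress list were higher without passing the test. Nppa, which encodes the atrial natriuretic peptide, averaged 13.77 ± 0.61 at day 1 and 12.26 ± 0.15 at day 0 (SD, n = 4 each), with replicate 2 the highest day 1 array at 14.47, a change of 1.51 ± 0.49 with no overlap (adjusted p = 0.165). The atrial marker list that contains Nppa had a summed linear intensity of 9316 to 24551 at day 1 and 5455 to 7568 at day 0, with Nppa itself in the sum. Some other atrial members had lower means at day 1. Sln, the atrial sarcolipin, read 5.37 at day 1 and 6.70 at day 0. Myl7 read 7.44 at day 1 and 8.40 at day 0, and Myl4 9.02 at day 1 and 9.55 at day 0. The groups overlapped for each of these genes (adjusted p from 0.681 to 0.876). Stard10 changed by -0.59, and Dkk3, Nr2f2, Tbx5 and Tbx3 by 0.14, 0.11, 0.08 and 0.05 (adjusted p from 0.323 to 0.974). Of the 9 list members tested, 5 had a positive change and 0 were called, and the median change was 0.05. Of the 10 on the array, 8 lay above the array median on all 4 arrays at day 1 and 9 at day 0. The member Bmp10 was not above the array median on any of the 8 arrays. Acta1, skeletal actin, changed by 0.69 ± 0.34 and Ankrd1, the cardiac ankyrin repeat protein, by 0.85 ± 0.24, also without overlap between the groups (adjusted p = 0.408 and 0.0951). With the 8 arrays only, Nppa, Acta1 and Ankrd1 were called (adjusted p = 0.0207, 0.0377 and 0.00553). Myh7, the slow myosin heavy chain, read 11.56, 10.10, 9.30 and 9.93 at day 1, against 8.47, 9.69, 8.04 and 8.90 at day 0, with overlapping groups and no call (adjusted p = 0.444).

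On the lists of contractile, calcium, potassium channel and mitochondrial genes no member was called. Outside these lists the muscle genes Pdlim3, Flnc and Tmod4 were called, at 1.81, 1.36 and -1.41 (adjusted p = 0.0243, 0.026 and 0.00451). Of 20 sarcomere and Z-disc genes tested, 0 were called (3 passed an unadjusted p under 0.05), and the median change was -0.04. Myh6, the adult myosin heavy chain, read 15.39, 15.23, 15.43 and 15.23 at day 1, against 15.28, 15.47, 15.38 and 15.43 at day 0, a difference of -0.07 ± 0.17. Atp2a2, the calcium pump of the sarcoplasmic reticulum, differed by -0.09 ± 0.16 with overlapping values. Among 15 calcium handling genes the median was -0.34 with 1 positive value and 0 called (1 at an unadjusted p under 0.05). Among 12 potassium channel genes the median was -0.49 with 0 positive values and 0 called. In the downward direction 4 passed an unadjusted p under 0.05, against 353 of all 7322 genes tested. The channel subunit Kcnip2, part of the transient outward current, read 8.28, 7.51, 9.15 and 8.79 at day 1, against 9.27, 9.61, 9.27 and 9.83 at day 0, lower on every day 1 array but not called (adjusted p = 0.414).

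Mitochondrial genes shifted by little. All 27 respiratory chain subunits tested had changes between -0.31 and -0.02, with a median of -0.14 and 0 called, also at an unadjusted p under 0.05. Fatty acid uptake and oxidation genes had a median of -0.09 over 31 members and 0 called (0 at an unadjusted p under 0.05). Enzymes of branched-chain amino acid breakdown had a median of -0.35 over 20 members. For 10 of the 20 every day 1 array lay below every day 0 array, against 5.78% of all genes, yet 0 were called and 1 passed an unadjusted p under 0.05.

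Glucose handling changed at single steps. Of 25 genes of glucose transport, glycolysis and hypoxia tested, 3 were called higher (0.833% over all genes) and 1 lower (0.205% over all genes), and the median change was 0.01. Slc2a1, the basal glucose transporter GLUT1, read 7.61, 8.26, 9.04 and 8.01 at day 1, against 7.07, 7.13, 6.85 and 6.44 at day 0. Pfkp, the platelet form of phosphofructokinase, read 8.29, 9.34, 8.58 and 8.52 at day 1, against 7.36, 6.97, 7.26 and 7.25 at day 0. Both rose without overlap, by 1.35 ± 0.30 and 1.47 ± 0.32 (log2 ± SE, adjusted p = 0.0289 and 0.0275). Other tested probe sets of Slc2a1 changed by 1.58 and 1.41 (adjusted p = 0.0101 and 0.0123), and that of Pfkp by 1.04 (adjusted p = 0.0651). Pfkfb2, the heart form of the enzyme that makes the fructose bisphosphate activating phosphofructokinase, read 5.58, 4.61, 4.73 and 4.81 at day 1, against 6.77, 6.01, 6.57 and 5.68 at day 0, a fall of 1.33 ± 0.29 on the log2 scale (change -1.33, adjusted p = 0.0254). A second tested probe set of Pfkfb2 changed by -0.0094 (adjusted p = 0.989), and the call was lost with the mean over probe sets. The insulin-dependent transporter Slc2a4 and the muscle phosphofructokinase Pfkm changed by -0.39 and -0.31 and were not called. Hmox1, haem oxygenase 1, read 6.15, 6.47, 9.28 and 7.74 at day 1, against 3.93, 4.45, 4.41 and 4.71 at day 0, and rose by 3.03 ± 0.65 (log2 ± SE, adjusted p = 0.0242). Day 1 replicate 3 was again the highest, and 0 of the 4 glucose and hypoxia calls held without it. The calls of Slc2a1 and Pfkp were lost without any 1 of the 8 arrays except day 1 replicate 1 (adjusted p from 0.0569 to 0.129). That of Pfkfb2 was also kept without day 0 replicate 4 (otherwise 0.0525 to 0.11). That of Hmox1 was kept without day 1 replicates 1 or 2 (otherwise 0.0537 to 0.0941). All 4 calls were also lost with no filter, and that of Hmox1 with log2(value + 16). Pdk4, the kinase that restrains pyruvate oxidation, averaged 12.21 ± 0.86 at day 1 and 11.78 ± 0.34 at day 0 (SD, n = 4 each), with overlapping groups (adjusted p = 0.893).

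**Figure D3:**
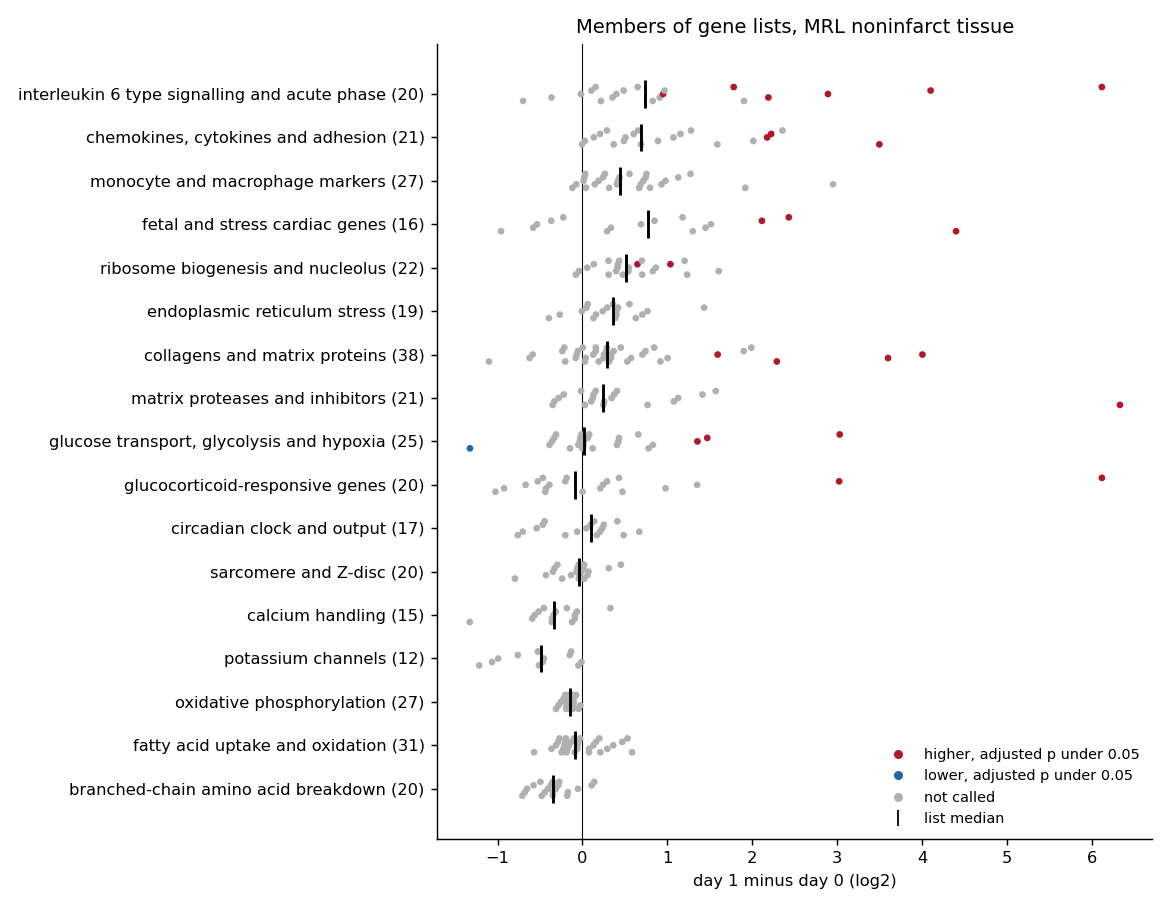
Change at day 1 against day 0 (log2, horizontal) of every tested member of 17 gene lists (rows, number tested in brackets) in MRL noninfarct tissue, with called members in colour and the list median as a bar. The acute phase list holds 6 called members around a median of 0.74, Timp1 on the protease list reaches 6.33, while potassium channels (median -0.49) and respiratory chain genes (median -0.14) have no member above 0.

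Some transcripts of ribosome assembly rose by small amounts. Of 22 nucleolar and ribosome biogenesis genes tested, 2 were called higher (0.833% over all genes) and 0 lower, and the median change was 0.51. In the upward direction 13 passed an unadjusted p under 0.05, against 549 of all 7322 genes tested. For 10 of the 22 the groups did not overlap, against 7.66% of all genes. Gnl3, the nucleolar GTPase nucleostemin, read 8.03, 8.60, 8.40 and 8.82 at day 1, against 7.43, 7.67, 7.24 and 7.36 at day 0, a change of 1.04 ± 0.19 (log2 ± SE, adjusted p = 0.0101) whose call was lost with all 46 arrays in the fit (adjusted p = 0.16) and without both replicate 3 arrays. Ncl, nucleolin, read 10.80, 11.12, 11.29 and 10.92 at day 1, against 10.26, 10.45, 10.42 and 10.41 at day 0. Its change of 0.65 ± 0.15 (log2 ± SE, adjusted p = 0.0396) lost the call without any 1 of the 8 arrays except day 1 replicate 1 (adjusted p from 0.0687 to 0.136). The other 3 tested probe sets of Ncl changed by 0.04, 0.41 and 0.20 and were not called. Uck2, which salvages uridine and cytidine for nucleotide synthesis, was among the 10 largest rises: it read 8.50, 10.67, 9.72 and 9.58 at day 1, against 6.34, 6.23, 6.55 and 6.61 at day 0, a change of 3.18 ± 0.53 (log2 ± SE, adjusted p = 0.0036). The small heat shock protein gene Hspb1 rose by 1.02 ± 0.22 (adjusted p = 0.0242), the 1 called member among 17 chaperones (0.833% called higher over all genes). That call was kept without day 1 replicate 1 or day 0 replicate 4 and lost without any other array (adjusted p from 0.0537 to 0.113). No endoplasmic reticulum stress gene of 19 tested was called (4 at an unadjusted p under 0.05), and the median was 0.36. The proliferation marker Mki67 was not called (adjusted p = 0.991), with 3.53, 3.32, 3.28 and 3.57 at day 1 against 3.45, 3.34, 3.33 and 3.42 at day 0, below the median of every array.

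Some chemokine transcripts rose. Of 21 chemokines, cytokines and adhesion genes tested, 3 were called higher, against 0.833% of all genes, and 0 lower, and the median was 0.69. Ccl6, a mouse CC chemokine made by myeloid cells, read 8.45, 8.39, 8.76 and 8.63 at day 1, against 5.68, 5.15, 4.78 and 4.62 at day 0. The groups did not overlap, and it rose by 3.50 ± 0.31 (log2 ± SE, adjusted p = 1.99e-06). Its relative Ccl9 read 7.89, 7.58, 7.58 and 7.66 at day 1, against 5.89, 5.01, 6.11 and 4.99 at day 0, a change of 2.17 ± 0.28 (log2 ± SE, adjusted p = 0.000257). Ccl7, a chemokine that draws monocytes, read 5.09, 4.85, 5.79 and 5.17 at day 1, against 3.04, 2.99, 2.97 and 3.00 at day 0. Its change was 2.22 ± 0.49 (log2 ± SE, adjusted p = 0.0275), and the day 0 mean was below the median of every array. The call was lost without any 1 of the 8 arrays except day 1 replicate 1 (adjusted p from 0.0623 to 0.102). It was also lost with no filter and with log2(value + 16). Ccl2, the main monocyte chemokine, read 5.46, 6.23, 9.34 and 6.50 at day 1, against 4.86, 4.67, 5.16 and 4.79 at day 0. All day 1 arrays were higher, replicate 3 by far the most, and the change of 2.01 ± 0.66 was not called (adjusted p = 0.168). The neutrophil chemokine Cxcl1 behaved likewise, with 5.77, 6.32, 9.61 and 5.65 at day 1 against 5.60, 4.90, 3.84 and 3.57 at day 0 (adjusted p = 0.11).

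Among myeloid transcripts the calprotectin genes rose. S100a9, a subunit of the calcium-binding protein calprotectin of neutrophils and monocytes, read 5.12, 5.73, 7.74 and 8.06 at day 1, against 3.23, 3.10, 3.12 and 3.18 at day 0. Replicates 3 and 4 were the high arrays, replicates 1 and 2 were lower, and all 4 exceeded day 0. The change was 3.50 ± 0.45 (log2 ± SE, adjusted p = 0.000257). Its partner S100a8 showed the same split, with 4.46, 4.64, 7.61 and 7.39 at day 1 against 3.16, 3.31, 2.81 and 3.23 at day 0, a change of 2.90 ± 0.61 (log2 ± SE, adjusted p = 0.0236). The S100a8 call was kept without day 1 replicates 1 or 2 and lost without any other array (adjusted p from 0.0569 to 0.0941). It was also lost with the 8 arrays only, with no filter and with log2(value + 16). Of 14 neutrophil markers on the array 5 were tested, of which S100a9, S100a8 and Lcn2 were called (0.833% of all genes were called higher). All 14 were at or below the array median on every MRL day 0 array. Those tested therefore passed the filter through arrays of other groups, and the count of called members is a description. The other 9 of the 14, among them the granule genes Camp, Elane, Ltf, Mpo and Ngp and the receptors Csf3r and Cxcr2, were not above the array median on any day 1 array. The summed linear intensity of the neutrophil list was 506, 686, 1065 and 1062 at day 1 and 116 to 128 at day 0, much of it Lcn2. Of 27 monocyte and macrophage markers tested, 0 were called (4 at an unadjusted p under 0.05), and the median was 0.44. Of the 27, 25 had a positive change, and for 7 every day 1 array lay above every day 0 array, against 7.66% of all genes. Lgals3, the macrophage galectin, had a change of 2.95 and was not called (adjusted p = 0.0871). Lyz2, the lysozyme of myeloid cells, was well above the array median on both days, at 9.81 at day 1 and 9.56 at day 0. The summed intensity of this list was 2038 to 3208 at day 1 and 1835 to 2019 at day 0. In these bulk samples more cells of a type and more RNA per cell cannot be told apart, and the part of myeloid cells in the rise of Lcn2, Ccl6 and the calprotectin genes was not tested.

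A few matrix genes of early wounds rose. Of 38 collagens and matrix proteins tested, 4 were called higher, against 0.833% of all genes, and 0 lower, and the median was 0.28. Prg4, which encodes the lubricating proteoglycan lubricin, read 8.52, 9.69, 10.45 and 9.48 at day 1, against 5.08, 6.00, 5.98 and 5.06 at day 0. It rose by 4.00 ± 0.44 (log2 ± SE, adjusted p = 3.36e-05), and was the 1 called matrix gene without day 1 replicate 3. Tnc, the wound matrix protein tenascin C, read 6.37, 8.21, 6.91 and 6.60 at day 1, against 3.26, 3.23, 4.03 and 3.16 at day 0. Ccn2, the connective tissue growth factor, read 11.55, 12.55, 12.40 and 12.25 at day 1, against 9.59, 10.22, 9.95 and 9.83 at day 0. Vcan, the large proteoglycan versican, read 5.91, 6.42, 6.45 and 6.11 at day 1, against 4.81, 4.23, 5.18 and 4.30 at day 0. None of these groups overlapped, and the changes were 3.60 ± 0.76 for Tnc, 2.29 ± 0.48 for Ccn2 and 1.59 ± 0.38 for Vcan (log2 ± SE, adjusted p = 0.0236, 0.0225 and 0.0483). The call of Tnc was kept without day 1 replicate 1 or day 0 replicate 3, that of Ccn2 without day 1 replicate 1 or day 0 replicate 2 and that of Vcan without day 1 replicate 1. Leaving out any other array ended each of them (adjusted p from 0.0508 to 0.162). All of these calls were also lost with no filter, and those of Tnc and Vcan with log2(value + 16). Vcan lost its call as well with quantile normalization, median centring, a trended and robust limma fit, and the mean over probe sets. A second tested probe set of Vcan changed by 1.29 (adjusted p = 0.196). Col1a1, a chain of fibrillar collagen I, read 10.27, 9.93, 8.51 and 9.05 at day 1, against 8.62, 8.75, 9.58 and 9.55 at day 0, with overlapping groups (adjusted p = 0.883).

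Among fibroblast and epicardial markers, Aldh1a2, the retinoic acid-forming enzyme of the epicardium, read 6.93, 6.81, 6.31 and 6.60 at day 1, against 3.60, 3.75, 4.04 and 3.95 at day 0. It was the 1 called member of 12 tested, against 0.833% of all genes called higher. The change was 2.83 ± 0.61 (log2 ± SE, adjusted p = 0.0247), and the day 0 mean was below the median of every array. The call was lost without any 1 of the 8 arrays except day 1 replicate 1 (adjusted p from 0.0533 to 0.0876). It was also lost with no filter and with log2(value + 16). The epicardial markers Msln, Tbx18 and Upk3b were not above the array median on any of the 8 arrays, while the epicardial marker Wt1 averaged 4.93 at day 1 and 4.74 at day 0 and was not called (adjusted p = 0.672). Fstl3, a secreted antagonist of activins, rose by 2.15 ± 0.39 (log2 ± SE, adjusted p = 0.00892). Its values were 7.41, 9.15, 8.08 and 7.82 at day 1 and 5.51, 6.04, 6.02 and 6.29 at day 0. No member of the endothelial (15 tested), smooth muscle (11), T lymphocyte (3), B lymphocyte (2), mast cell (2), erythroid and platelet (4), adipose (3), nerve (2) or skeletal muscle (2) lists was called.

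Falling genes were fewer and smaller. Plekhh1, a protein with pleckstrin homology and FERM domains, had the largest fall: it read 5.44, 4.37, 3.57 and 4.85 at day 1, against 6.65, 7.05, 7.18 and 6.61 at day 0 (change -2.32 ± 0.30, adjusted p = 0.000267). Tmod4, a tropomodulin that caps actin filaments in muscle, read 5.26, 4.83, 5.80 and 5.29 at day 1, against 6.65, 6.69, 6.96 and 6.53 at day 0 (change -1.41 ± 0.24, adjusted p = 0.00451). Both groups of arrays were separate for these genes. Itih5, a hyaluronan-binding heavy chain of the inter-alpha-trypsin inhibitor family, read 5.58, 5.09, 5.35 and 4.60 at day 1, against 6.10, 6.18, 6.62 and 6.57 at day 0 (change -1.21 ± 0.20, adjusted p = 0.00329). Aspn, the small leucine-rich proteoglycan asporin, read 5.90, 5.49, 5.41 and 5.06 at day 1, against 6.59, 7.21, 6.86 and 6.24 at day 0 (change -1.26 ± 0.30, adjusted p = 0.0471). The other named falls were L3hypdh, a hydroxyproline dehydratase, at -1.18, the cell polarity scaffold Patj at -1.02, Myorg, a glycosidase of muscle, at -0.84, the ubiquitin ligase Rbbp6 at -0.79 and the DNA-binding factor Banp at -0.73 (adjusted p from 0.00808 to 0.0448). The calls of Aspn, L3hypdh, Patj, Myorg and Rbbp6 were lost in some of the fits that left out 1 array. Aspn lost its call without any 1 array except day 1 replicate 1, and Rbbp6 without any except day 1 replicate 3 (adjusted p from 0.0523 to 0.174). Patj lost it when replicate 2 or 4 of day 1, or replicate 4 of day 0, was left out (0.0501 to 0.0682). L3hypdh lost it without replicate 2 or 4 of day 1, or without replicate 1, 2 or 3 of day 0 (0.0672 to 0.106). Myorg lost it without replicate 3 or 4 of day 1, or without replicate 1, 2 or 3 of day 0 (0.0584 to 0.0898). The calls of Plekhh1, Tmod4, Itih5 and Banp held without each array, and that of Tmod4 was lost with all 46 arrays in the fit (adjusted p = 0.0729). A second tested probe set of Aspn changed by -0.28 (adjusted p = 0.848), and those of Rbbp6 by -0.89 and -0.0069 (adjusted p = 0.0906 and 0.994).

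The clock, immediate early and interferon lists together held 1 call, near the 1.04% called over all genes. No clock gene of 17 tested was called (2 at an unadjusted p under 0.05), and the day 0 spread of Dbp from 6.52 to 10.51 covered its day 1 values of 9.96, 8.86, 8.21 and 7.01. No immediate early or AP-1 gene of 18 tested was called (7 at an unadjusted p under 0.05). Of these, 3 were higher and 4 lower, against 549 higher and 353 lower of all 7322 genes tested. Of 20 interferon-induced genes, 1 was called: Ifitm3, a membrane protein that restricts virus entry, read 11.20, 11.04, 10.92 and 10.93 at day 1, against 10.24, 10.27, 10.17 and 9.91 at day 0, a change of 0.87 ± 0.17 (log2 ± SE, adjusted p = 0.0123). Its call was lost without day 0 replicate 4 (adjusted p = 0.0523).

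The infarct itself changed far more widely. In MRL infarct tissue 4046 of 13138 probe sets were called at day 1 (30.8%), 1830 higher (13.9%) and 2216 lower (16.9%), with 5439 at an unadjusted p under 0.05 (41.4%). All 76 genes called in noninfarct tissue had the same sign in the infarct, where 61 of them changed by more, and their median absolute change was 1.38 in noninfarct and 2.35 in infarct tissue. Since these genes were chosen for their change in noninfarct tissue, this is a description. Across probe sets the changes of both regions correlated at r = 0.803, over arrays that share no sample but may share hearts, since same-numbered arrays of both regions deviated together at day 1. Serpina3n changed by 4.10 in noninfarct and 4.21 in infarct tissue (difference -0.11 ± 0.59, adjusted p = 0.961), and Lcn2 by 6.12 in noninfarct and 6.44 in infarct tissue (difference -0.32 ± 0.51, adjusted p = 0.841). Neither difference was called, which does not show that the regions were alike.

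A direct test of the change in noninfarct tissue minus the change in infarct tissue called 10 probe sets (0.0761%), 1 higher (0.00761%) and 9 lower (0.0685%), while 1578 passed an unadjusted p under 0.05 (12%). Same-numbered arrays of both regions deviated together at day 1 (r from 0.35 to 0.56) and less evenly at day 0 (r from 0.0825 to 0.555), and with the replicate number as a random block 75 probe sets were called (20 higher and 55 lower). The lower group included S100a8 with a difference of -3.75 ± 0.78 and S100a9 with -3.34 ± 0.69 (adjusted p = 0.0413 for each). These genes had risen by 2.90 and 3.50 in noninfarct tissue and by 6.65 and 6.84 in the infarct. Slfn4, a schlafen gene of myeloid cells, averaged 2.02 ± 0.46 at day 1 and 1.78 ± 0.03 at day 0 in noninfarct tissue, and 5.93 ± 1.36 at day 1 and 1.79 ± 0.01 at day 0 in the infarct (SD, n = 4 each). Procr, the endothelial protein C receptor, had a difference of -3.26 ± 0.69 and Srgn, the granule proteoglycan serglycin, one of -1.61 ± 0.30. Slc22a23, an orphan solute carrier, was the 1 probe set in the other direction, at 1.34 ± 0.27. It changed by -1.05 in the infarct, and its noninfarct values, 3.27, 3.79, 3.33 and 3.88 at day 1 and 3.23 to 3.31 at day 0, lay below the median of every array. No probe set passed this test in 10 of the 16 fits that left out 1 array, namely when the array left out was replicate 1 or 2 of noninfarct day 1, any of replicates 1 to 3 of noninfarct or of infarct day 0, or replicate 2 or 4 of infarct day 1, and 195 passed without infarct day 1 replicate 1.

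**Figure D4:**
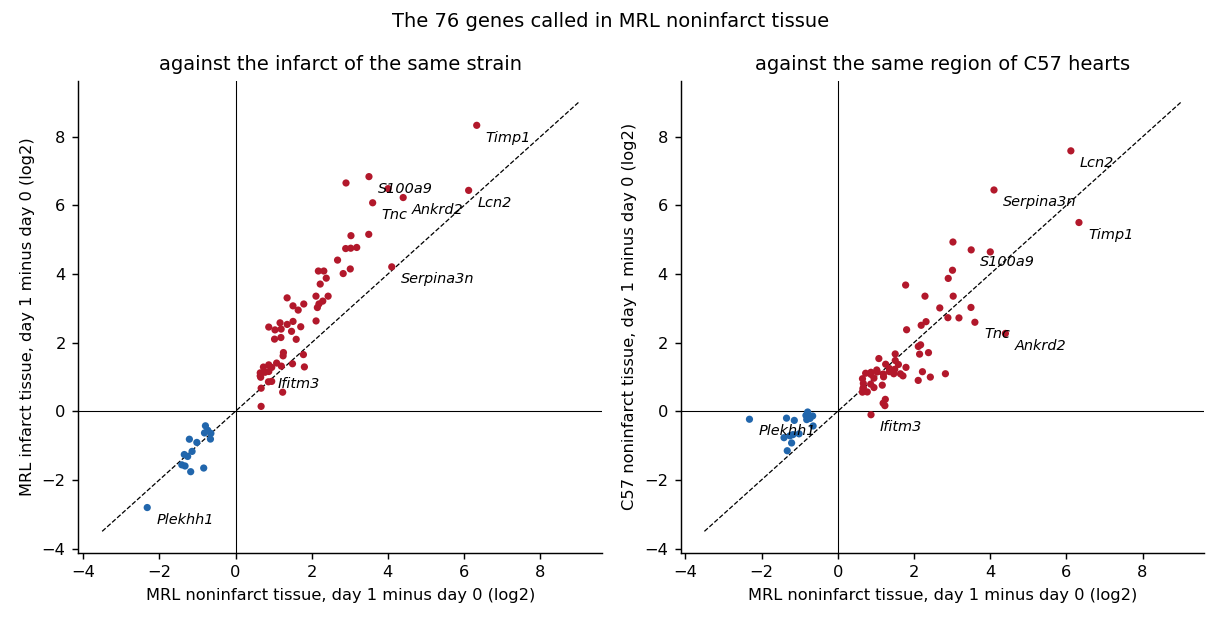
Day 1 minus day 0 change (log2) of the 76 genes called in MRL noninfarct tissue (horizontal) against their change in MRL infarct tissue (left panel) and in C57 noninfarct tissue (right panel), with red for genes called higher and blue for genes called lower. All 76 lie on the same side of 0 in the infarct and 61 are larger there, and in C57 Ifitm3 lies at -0.10 while it is at 0.87 in MRL.

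The same region of C57 hearts gave a comparison that shares no array with the MRL one. At day 1 against day 0, 492 probe sets were called there (3.99%), 335 higher (2.71%) and 157 lower (1.27%), with 2258 at an unadjusted p under 0.05 (18.3%). Among genes the number was 299 (4.08%). Both strains called 70 probe sets in the same direction (64 higher and 6 lower) and 0 in opposite directions, which is 57.9% of the MRL calls and 14.2% of the C57 calls. Of the 121 MRL calls, 120 had the same sign in C57, where 71.1% of all probe sets had the same sign in both strains. The exception was Ifitm3, at 0.87 in MRL and -0.10 in C57. The share of MRL calls also called in C57 was 66% for the higher ones and 25% for the lower ones, and no test was made of that contrast. Across 12344 probe sets the changes correlated at r = 0.688.

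The test of the difference itself, the MRL change minus the C57 change, called 1 probe set higher (0.0081%) and 0 lower, with 413 at an unadjusted p under 0.05 (3.35%). The call was Gbp3, an interferon-inducible guanylate-binding protein. Gbp3 read 6.44, 5.61, 5.66 and 5.39 at day 1, against 5.25, 5.59, 5.95 and 5.91 at day 0 in MRL, with overlapping groups and no call there (0.10 ± 0.21, adjusted p = 0.926). In C57 it averaged 3.78 ± 0.22 at day 1 (SD, n = 4) and 6.00 ± 0.31 at day 0 (SD, n = 3), a change of -2.22 ± 0.23. The difference was 2.31 ± 0.31 (log2 ± SE, adjusted p = 0.00439). On simulated data the strain test recovered 22.4% of differences of 1 log2 unit and 80.6% of 2. Few calls therefore do not show that the strains responded alike. Named genes with unequal values in the strains did not pass the strain test. Serpina3n changed by 4.10 in MRL and 6.45 in C57 (difference -2.35, adjusted p = 0.499), Lrg1 by 1.78 in MRL and 3.68 in C57 (difference -1.90, adjusted p = 0.499), and Nppb by 2.43 in MRL and 1.00 in C57 (difference 1.43, adjusted p = 1). Plekhh1 changed by -2.32 in MRL and -0.23 in C57 (difference -2.08, adjusted p = 0.258). Ankrd2 changed by 4.40 in MRL and 2.27 in C57 (difference 2.13, adjusted p = 1).

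By day 5 the MRL noninfarct tissue had changed more broadly, with 2990 of 12344 probe sets called against day 0 (24.2%), 1981 higher (16%) and 1009 lower (8.17%), and 4800 at an unadjusted p under 0.05 (38.9%). Of the calls 66.3% were higher, or 48.5% after quantile normalization, which moved the median change over all probe sets to -0.136. The day 5 comparison shares its day 0 arrays with the day 1 comparison, so levels over the days are given side by side. At days 0, 1 and 5, S100a9 averaged 3.16, 6.66 and 2.96, Ankrd2 3.16, 7.56 and 3.60, Prg4 5.53, 9.54 and 6.67, and Lrg1 8.74, 10.52 and 8.69. For these genes the day 5 level was not called different from day 0 (adjusted p from 0.0658 to 0.91). Lcn2 averaged 2.76, 8.88 and 4.68 and Serpina3n 5.49, 9.59 and 7.42 at days 0, 1 and 5, and both were still above day 0 at day 5 (adjusted p = 0.000899 and 0.00112).

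A further group stayed high at day 5. Timp1 averaged 2.43, 8.77 and 9.57 at days 0, 1 and 5, Tnc 3.42, 7.02 and 10.03, and Ccl6 5.06, 8.55 and 8.32. Ccn2 averaged 9.90, 12.19 and 12.38. Nppa, not called at day 1, averaged 12.26, 13.77 and 14.55 at days 0, 1 and 5 and was called at day 5 (adjusted p = 0.00226). Col1a1 averaged 9.13, 9.44 and 13.86, and Mki67 3.39, 3.43 and 7.46, both called at day 5 and not at day 1 (day 5 adjusted p = 3.44e-06 and 4.21e-05). Plekhh1 and Tmod4 were still low at day 5, with 4.27 and 5.08 on average. Aspn and Itih5, lower at day 1, averaged 9.42 and 7.79 at day 5, above their day 0 means of 6.72 and 6.36 (adjusted p = 6e-06 and 4.43e-05).

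**Figure D5:**
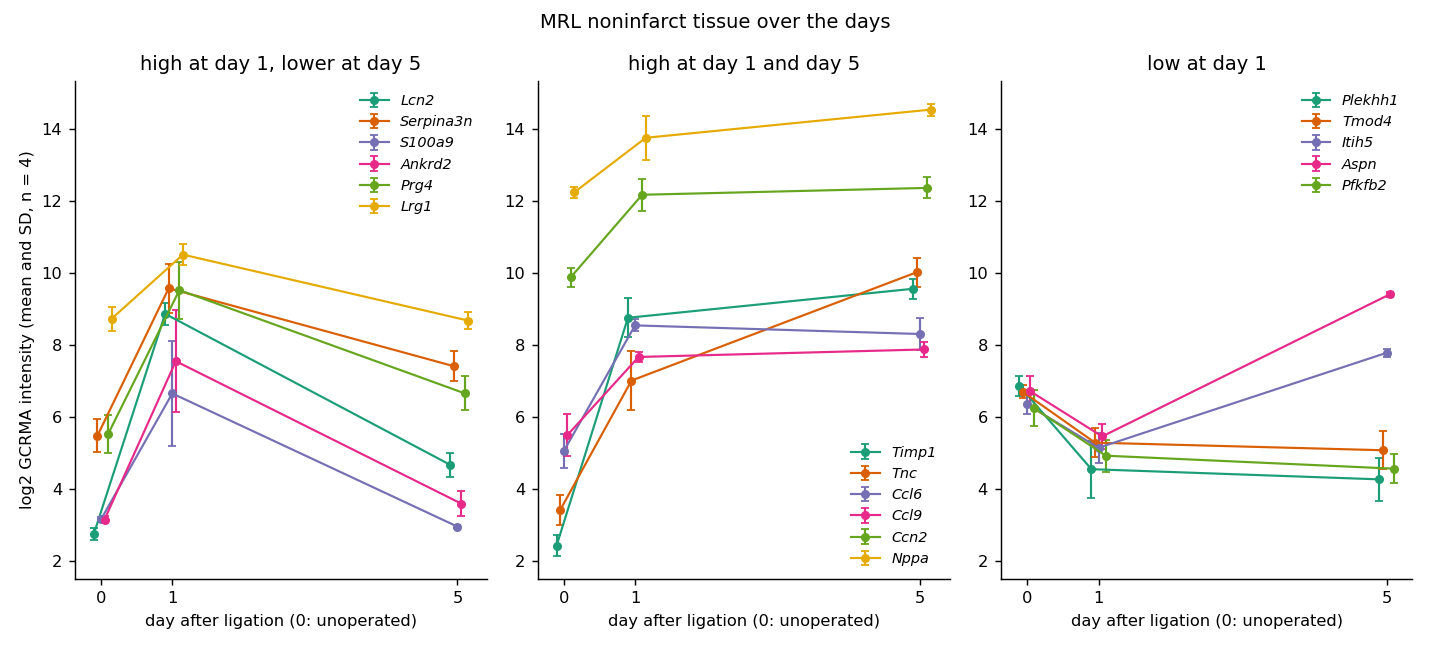
Mean log2 intensity (vertical, whiskers of 1 SD, n = 4 arrays a day) of 17 genes in MRL noninfarct tissue at days 0, 1 and 5 (horizontal). In the left panel S100a9 and Ankrd2 are back near their day 0 levels at day 5, in the middle panel Timp1 and Tnc are at least as high at day 5 as at day 1 (Nppa was not called at day 1), and in the right panel Aspn and Itih5 dip at day 1 and exceed day 0 at day 5.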

How the data were processed

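The authors deposited 1 intensity per probe set and array on a linear scale, made with GCRMA (background correction and normalization across arrays), per the submitters' processing notes; the version was not given in the sources used here. The deposited intensity was taken to log2 without a pseudocount, since the lowest value was 1.03. Of 22690 probe sets, 64 controls were left out. Probe sets were named from GEO's platform annotation: 20380 had 1 gene symbol, 691 several and 1555 none, and 20351 symbols matched RefSeq with 0 changed. A probe set was tested if it lay above the array median in at least 3 of the 23 noninfarct arrays (12344) or of all 46 arrays (13138, for comparisons with infarct tissue), and a gene was its brightest tested probe set with 1 symbol. limma 3.58.1 in R 4.3.3 fitted 1 mean per group (6 groups, 17 residual degrees of freedom) with moderated two-sided tests and Benjamini-Hochberg adjustment over all probe sets tested, and a call is an adjusted p under 0.05.

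Differences between strains and between regions were tested as interaction contrasts. Named genes are the 10 largest rises and 10 largest falls among called genes without overlap, up to 6 called members per list and 18 index genes, 52 in all. Other list members are given as values. The members and the 42 lists were chosen with earlier results of these data known. The fit was tested on simulated data over 13138 probe sets. For the day 1 comparison it recovered 50.7% of changes of 1, 92.5% of 2 and 100% of 4 log2 units, with 14 false calls. Of changes of 1 log2 unit, the strain contrast recovered 22.4% and the region contrast 29.9%. Alternatives covered the filter, normalization, pseudocount, arrays in the fit, replicate block and each array left out. Same-numbered day 1 and day 0 arrays did not deviate together (r from -0.178 to 0.184), so they were not paired. Same-numbered noninfarct and infarct arrays did at day 1 (r from 0.35 to 0.56) but not in every pair at day 0 (r from 0.0825 to 0.555), so the region test was run without a block and with a random one.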

Additional observations from a re-analysis of the deposited data

Results flagged for a closer look

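In the strain comparison, Gbp3 differed between MRL and C57 noninfarct tissue, with an MRL change minus C57 change of 2.31 by the interaction test. Between the regions of MRL hearts, the noninfarct change minus the infarct change passed the interaction test for Slc22a23 at 1.34, Slfn4 at -3.89, S100a8 at -3.75, S100a9 at -3.34, Procr at -3.26 and Srgn at -1.61. Slc22a23, Slfn4 and Procr had noninfarct means below the median of every array on both days.

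Tnc on day 0 replicate 3 read 4.03, apart from the other day 0 arrays at 3.16 to 3.26. This was 1 of 104 groups of 4 arrays checked for a single distant array (0.962%), where chance gives about 1 in 20.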

How the results depend on the processing

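Of the 41 named genes called at day 1, 15 kept the call under every alternative run, 26 lost it under at least 1, and 0 changed sign. Of 11 not called, 3 (Acta1, Ankrd1 and Nppa) became called with the 8 arrays only, Ankrd1 also with the replicate block and without the C57 array. The counts moved more. The day 1 comparison called 121 probe sets (97 higher, 24 lower), against 57 higher with no filter, 317 (223 higher, 94 lower) without C57 day 5 noninfarct replicate 3, 494 (344 higher, 150 lower) with the 8 arrays only, and 45 to 212 (37 to 164 higher, 8 to 48 lower) with 1 array left out in turn. Without both replicate 3 arrays, an alternative chosen after seeing the data, it called 35 (19 higher). With the replicate number as a block, 199 were called (164 higher), although the numbers do not pair these arrays. The strain comparison called 1 (1 higher, 0 lower), 2 with no filter (2 higher), 2 with log2(value + 16) (1 lower), 2 with all 46 arrays (2 higher) and 1 to 6 with 1 array left out (1 higher in each, 0 to 5 lower). At day 5 the lower calls were 1009, against 1853 with quantile normalization, 496 with all 46 arrays and 1880 without the C57 array. With 1 array left out, day 5 gave 1735 to 2469 calls (1352 to 1748 higher, 383 to 728 lower). The region comparison called 10 (1 higher, 9 lower), 4 with no filter (3 lower), 14 lower with quantile normalization, 334 with the 16 MRL arrays only (171 higher, 163 lower), 28 without the arrays that stand apart (3 higher, 25 lower), 75 with a random replicate block (20 higher, 55 lower) and 0 to 195 with 1 array left out (0 to 96 higher, 0 to 99 lower). Uncalled values near 0 changed sign: Mki67 spanned -0.0072 (without day 1 replicate 4) to 0.089 (without day 1 replicate 3), and the region difference of Serpina3n, -0.11 as reported and as low as -0.53 without infarct day 1 replicate 2, was 0.035 and 0.094 without noninfarct day 1 replicates 1 and 2, 0.097 without noninfarct day 0 replicate 4, 0.14 without infarct day 1 replicate 3, and 0.086 and 0.0074 without infarct day 0 replicates 2 and 4. The causes of these shifts were not tested, and genes near or below the array median have the least certain fold changes.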

Other observations

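Some further called genes are given as single values, chosen after their values were seen. Ctps, which makes cytidine triphosphate, read 9.44, 10.27, 9.83 and 10.08 at day 1, against 8.70, 8.65, 8.72 and 8.53 at day 0, a change of 1.26 ± 0.27 (log2 ± SE, adjusted p = 0.0236, limma). Upp1, uridine phosphorylase, changed by 1.17 (adjusted p = 0.0396).

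Itga5, the fibronectin receptor subunit, read 8.33, 9.64, 9.34 and 9.45 at day 1, against 7.36, 7.34, 7.35 and 7.54 at day 0 (change 1.79, adjusted p = 0.0427). Flnc, the muscle filamin, changed by 1.36, Pdlim3, a Z-disc protein, by 1.81, Tnfrsf12a, the receptor for TWEAK, by 2.11 and the membrane glycoprotein Pdpn by 2.38 (adjusted p from 0.0152 to 0.026). Among lower genes, Mme, the membrane metalloendopeptidase neprilysin, read 4.28, 3.45, 4.02 and 3.98 at day 1, against 5.37, 6.37, 4.04 and 5.33 at day 0, where replicate 3 overlapped the day 1 range (change -1.34, adjusted p = 0.0379). Abat, which degrades GABA, changed by -1.14 (adjusted p = 0.0113), also with overlapping groups.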
